A study of Mus musculus with 12 samples.

Results

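The regional difference within the wild-type mouse cortex was examined at embryonic day 14, with 3 arrays of caudal cortex set against 3 arrays of rostral cortex, 6 of the 12 arrays of the series. The samples were taken by their titles. Caudal wild-type arrays came from animals 4, 6 and 14, and rostral wild-type arrays from animals 10, 12 and 16. The other 6 arrays came from AP2gamma knockout cortex of the same age, caudal from animals 1, 2 and 13 and rostral from animals 7, 8 and 15. The gene of AP2gamma, a transcription factor, is Tfap2c. The knockout arrays entered the fit, where they add to the estimate of the spread, and served as a second set of regional samples. Wild-type and knockout are written WT and KO below. Each animal number appears once in the series. Strain, litter and the place where the cortex was divided are not given in the sources used here, nor are the allele of the knockout and the cells in which it acts. Total RNA (400 ng) was amplified, labelled with biotin and hybridised to 1-colour arrays, and the deposited values are on the log2 scale, where a difference of 1 is a 2-fold change. All differences are caudal minus rostral, so a negative difference means a higher rostral value.

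The areas of the cortex are laid out early, before axons from the thalamus arrive. Fibroblast growth factors from the anterior midline favour rostral identity through targets such as the ETS factors Etv1, Etv4 and Etv5. Wnt and bone morphogenetic proteins from the cortical hem, and the transcription factors Emx2, Nr2f1 and Nr2f2, favour caudal and medial identity. Neurogenesis also runs as a gradient across the sheet, with lateral and rostral cortex ahead of medial and caudal cortex. A dissected piece can carry tissue that borders the cortex: the septum, ganglionic eminence and olfactory bulb in front, the hem, hippocampal field, choroid plexus and thalamus behind.

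The arrays had near-identical medians (5.21 to 5.22) and upper quartiles (7.54 to 7.56), and each array's mean Spearman correlation with its group, over all probe sets, lay between 0.926 and 0.952, against 0.932 to 0.944 with the other region of the same genotype. All 6 caudal arrays, WT and KO, correlated more with the rostral arrays than with their own group, and all 6 rostral arrays more with their own group. Cortical markers lay far above the table's median on all 6 WT arrays: Neurod6, a factor of young cortical neurons, read 11.57 to 11.99, Lhx2 10.84 to 11.47, Emx1 8.48 to 9.32 and Eomes, the T-box factor of basal progenitors, 10.62 to 10.99. Tfap2c read 9.19, 8.84 and 8.64 in caudal WT cortex and between 8.54 and 9.06 on the rostral WT arrays, a difference of 0.02 ± 0.19 (SE). Caudal array 6 stood apart in transcripts of the choroid plexus, the tissue that secretes cerebrospinal fluid. Its Ttr value was 13.63 against 4.41 and 1.32 on the other caudal WT arrays and 2.31, 3.21 and 0.13 on the rostral WT arrays. Xist, the RNA of the silenced X chromosome, had high values on caudal array 6 (11.32) and rostral array 12 (11.89) and at most 5.48 on the other 4 WT arrays. The Y chromosome gene Eif2s3y read 0.20 and 2.60 on arrays 6 and 12, and 8.49 to 8.88 on the other WT arrays. Each WT region thus held 1 array with the pattern of a female embryo. On the KO arrays Eif2s3y read 8.78 to 9.15, so the sexes were not balanced between genotypes. The animal numbers differ between regions, but the labels do not say whether pieces came from 1 embryo or litter. With arrays joined by number order (4 with 10, 6 with 12, 14 with 16, and likewise in KO) as a random block, 84 caudal and 236 rostral genes passed, against 30 and 81 without it.

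Of 11785 genes tested with limma, 111 differed between caudal and rostral WT cortex at an adjusted p under 0.05, which is 0.942% of the genes. Such genes are said to have passed. Fewer passed in the caudal direction (30 genes, 0.255%) than in the rostral direction (81 genes, 0.687%), and 16 caudal and 38 rostral genes differed by over 2-fold. The largest caudal difference was that of the transcript Gm38604 (3.62). Other caudal genes, not ranked by size here, included the orphan nuclear receptors Nr2f1 and Nr2f2, the receptor Fgfr3 and the GABA-A receptor subunit Gabra2. The Wnt receptor Fzd7 and the caveolins Cav1 and Cav2 were caudal as well. The 12 rostral genes of largest measured difference were Isl1, Dct, Sall4, BC034090, Zic1, Thsd4, Fgf18, Olig2, As3mt, Il17rd, Ppp1r17 and Clgn, several of them dim in caudal cortex. In all 111 genes the 3 caudal values lay wholly above or wholly below the 3 rostral values. The arrays failed to overlap in 1644 of the tested genes (13.9%), so a lack of overlap alone was common. Over all tested genes the median difference was -0.02, 6546 were higher rostrally and 5239 caudally, and 833 rostral and 390 caudal genes had an unadjusted p under 0.05. Counts for gene lists are read beside these.

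**Figure D1:**
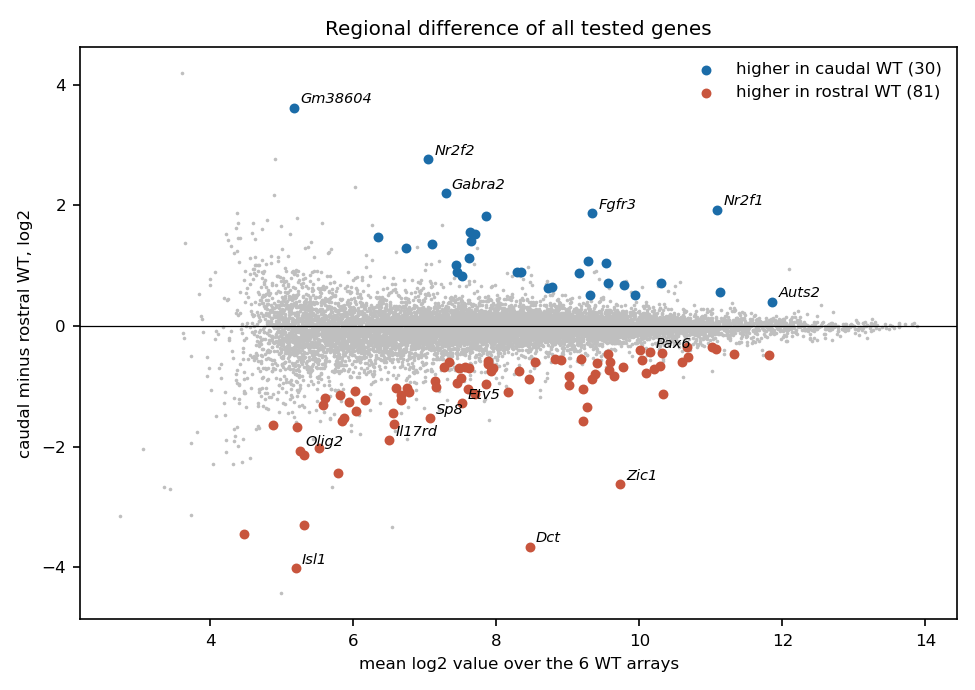
Caudal minus rostral difference (log2, vertical axis) against the mean log2 value over the 6 WT arrays (horizontal axis) for the 11785 tested genes. The 30 genes that passed with higher caudal values are blue, the 81 with higher rostral values are red, and Gm38604 (3.62) and Isl1 (-4.02), each dim in 1 region, are the outermost coloured points.

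The number that passed moved with the arrays used. With 1 array left out in turn, 10 to 40 caudal and 17 to 94 rostral genes passed. Leaving out rostral array 10 left 10 and 17, rostral array 12 left 11 and 33, rostral array 16 left 16 and 32, caudal array 14 left 14 and 49, and caudal array 6 left 17 and 80. Without caudal array 4 the counts were 28 and 56. Among the KO arrays, leaving out caudal KO array 2 left 51 rostral genes and rostral KO array 8 left 47. Since no regional values overlapped in these genes, leaving out arrays could not turn a direction. Over 26 alternative fits, 11 of the 111 passed in every fit in which they were tested. The 4 caudal genes among these were Nr2f1, Nr2f2, Fgfr3 and Gm38604, and the 7 rostral genes were Zic1, Pou3f4, Fgfbp3, Hs3st1, Plcxd2, Tmem41a and As3mt.

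Nr2f1 and Nr2f2 encode the nuclear receptors COUP-TFI and COUP-TFII. COUP-TFI forms a gradient over the cortical sheet that is high caudally and laterally and sets the extent of sensory areas, and COUP-TFII is known in caudal and medial pallium and in interneurons of the caudal ganglionic eminence. The 250 bases before the start of each gene are printed here because both genes, and the neighbours of Nr2f1, were higher caudally. They come from RefSeq's table of promoters (GRCm38.p6), both on the minus strand, at chr13:78198874-78199123 for the upstream one of 2 annotated Nr2f1 starts and at chr7:70366747-70366996 for Nr2f2. Capitals mark a match to CTTTGAT, the letters of a TCF/LEF-type motif.
Nr2f1: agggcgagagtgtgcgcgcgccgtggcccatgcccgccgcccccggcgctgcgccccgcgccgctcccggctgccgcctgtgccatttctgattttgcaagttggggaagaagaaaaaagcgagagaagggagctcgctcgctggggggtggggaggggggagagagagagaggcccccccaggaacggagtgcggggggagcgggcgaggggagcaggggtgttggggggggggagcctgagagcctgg
Nr2f2: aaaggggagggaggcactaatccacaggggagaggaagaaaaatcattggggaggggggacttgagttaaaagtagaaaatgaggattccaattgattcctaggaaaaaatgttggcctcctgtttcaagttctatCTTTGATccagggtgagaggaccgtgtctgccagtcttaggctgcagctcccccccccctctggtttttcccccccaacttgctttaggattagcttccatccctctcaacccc
The match in Nr2f2 begins 114 bases before the start, and the Nr2f1 stretch holds none of the 3 motifs searched on both strands (CTTTGAT, the ETS-type GGAAGTG and the nuclear receptor half-site AGGTCA). A gene was counted for a motif when the 250 bases before any of its annotated starts held a match. The first motif, CTTTGAT, was found in 3 of 25 caudal genes with a promoter in the table (12%, Nr2f2, Sv2b and Pigq) and in 0 of 63 rostral genes. It was found in 2.72% of tested genes with a promoter and in 3.72% of all genes with a promoter. GGAAGTG was found in 0 of 25 caudal and 7 of 63 rostral genes (11.1%), against 12.7% of tested genes, and AGGTCA in 2 of 25 (8%) and 10 of 63 (15.9%), against 12.4%. These shares are descriptions of the letters in the windows and were not tested.

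The log2 values of Nr2f2 were 8.15, 8.71 and 8.43 on caudal arrays 4, 6 and 14 and 5.81, 5.65 and 5.52 on rostral arrays 10, 12 and 16. Every caudal value lay more than 2 log2 units above every rostral value, and all 5 probe sets of the gene pointed the same way. The means were 8.43 ± 0.28 and 5.66 ± 0.14 (SD, n = 3), a difference of 2.77 ± 0.31 (SE) or 6.83-fold (limma adjusted p = 0.0016). Nr2f1 read 12.07, 12.04 and 12.07 in caudal and 10.06, 10.41 and 9.90 in rostral cortex. The caudal arrays were almost equal and lay well above the rostral ones, with a difference of 1.93 ± 0.26 or 3.82-fold (adjusted p = 0.0045). On the same difference in KO arrays, Nr2f1 gave 2.13 and Nr2f2 1.91. Since each piece was assayed whole, fewer cells of a type and less RNA per cell cannot be told apart for these or any other genes here.

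Transcripts beside Nr2f1 moved with it. In the reference annotation its nearest tested neighbours are the long noncoding transcripts Gm38604 and A830082K12Rik, with no other tested gene between. Gm38604 read 6.82, 7.23 and 6.89 in caudal and 3.23, 3.67 and 3.18 in rostral cortex, where all 3 values lay under 5.21, the median of the whole table. A gene at or under that value on all 3 arrays of a group is called dim there. Its fold change is taken after values under 5.21 were raised to 5.21, and is written with the words at least. Such folds are estimates without a margin of error, and 5.21 was not shown to be a limit of detection. Taken in this way, Gm38604 was at least 3.41-fold higher caudally (difference 3.62 ± 0.30, adjusted p = 0.00016). A830082K12Rik, annotated on the plus strand with a span that overlaps the start of Nr2f1, read 7.66, 7.50 and 8.17 in caudal and 6.44, 6.34 and 6.46 in rostral cortex (1.37 ± 0.26, adjusted p = 0.026). Its 4 probe sets gave the same sign, and it no longer passed without caudal array 4 or 14 or rostral array 10, 12 or 16 (adjusted p = 0.051 to 0.10). The strand read by the probes was not examined, so reads of a gene and of a transcript that overlaps it cannot be told apart.

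Fgfr3 encodes the receptor for fibroblast growth factors that marks caudal radial glia. Its values were 10.47, 10.03 and 10.32 in caudal and 8.17, 8.73 and 8.30 in rostral cortex. The lowest caudal value stood above the highest rostral value by more than 1 log2 unit (difference 1.87 ± 0.24, 3.67-fold, adjusted p = 0.0040). Fgfr2, a related receptor of radial glia, was higher caudally as well, at 9.01, 9.37 and 8.91 against 8.36, 8.53 and 8.47 (0.64 ± 0.12, adjusted p = 0.029). Fgfr2 lost its call without caudal array 6 or rostral array 10, 12 or 16 (adjusted p = 0.072 to 0.13). The related Fgfr1 gave -0.26 (adjusted p = 0.76) and did not pass.

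Turning to membrane proteins, Fzd7, a Frizzled receptor for Wnt proteins, read 7.55, 7.57 and 7.02 in caudal and 6.26, 6.17 and 5.83 in rostral cortex (1.30 ± 0.18, adjusted p = 0.0058). Gabra2 encodes a subunit of the GABA-A receptor. It read 8.43, 8.29 and 8.46 in caudal and 5.75, 6.05 and 6.76 in rostral cortex, so the caudal arrays were close together and the rostral ones spread over 1 log2 unit (2.21 ± 0.29, 4.63-fold, adjusted p = 0.0040). Cav1 and Cav2 are adjacent genes for caveolins, the coat proteins of membrane caveolae. Cav1 read 8.87, 8.92 and 8.52 against 6.86, 6.83 and 7.16 (1.82 ± 0.39, adjusted p = 0.047). Cav2 read 6.87, 7.16 and 7.21 against 5.66, 5.09 and 6.06 (1.48 ± 0.29, adjusted p = 0.033). The WT arrays of each caveolin did not overlap, as in all 111 genes that passed, but the calls were fragile. Cav1 passed in 9 of 26 alternative fits and lost its call when any of 10 arrays was left out (all 6 WT arrays, caudal KO array 2 and rostral KO arrays 7, 8 and 15, adjusted p = 0.055 to 0.17). Cav2 lost its call without any caudal WT array, rostral array 10 or 12, caudal KO array 2 or rostral KO array 7 (adjusted p = 0.050 to 0.12).

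Tafa2, which encodes a small secreted brain protein, was 2.96-fold higher caudally (7.85, 8.83 and 8.58 against 7.16, 6.52 and 6.88, adjusted p = 0.012). It lost its call without rostral array 12 (adjusted p = 0.060, range 0.0030 to 0.12 over 26 alternatives). Rbm20, a splicing regulator, read 8.73, 8.36 and 8.30 against 6.85, 7.05 and 6.90 (1.53 ± 0.26, adjusted p = 0.015), and lost its call without caudal array 4 or rostral array 10 or 16 (0.051 to 0.080). Hpca encodes hippocalcin, a neuronal calcium sensor abundant in the hippocampus. It read 8.05, 8.55 and 8.46 against 6.40, 7.15 and 7.29 (1.40 ± 0.29, adjusted p = 0.037), and lost its call without caudal array 6 or 14, any rostral WT array, caudal KO array 2 or rostral KO array 8 (0.055 to 0.16).

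**Figure D2:**
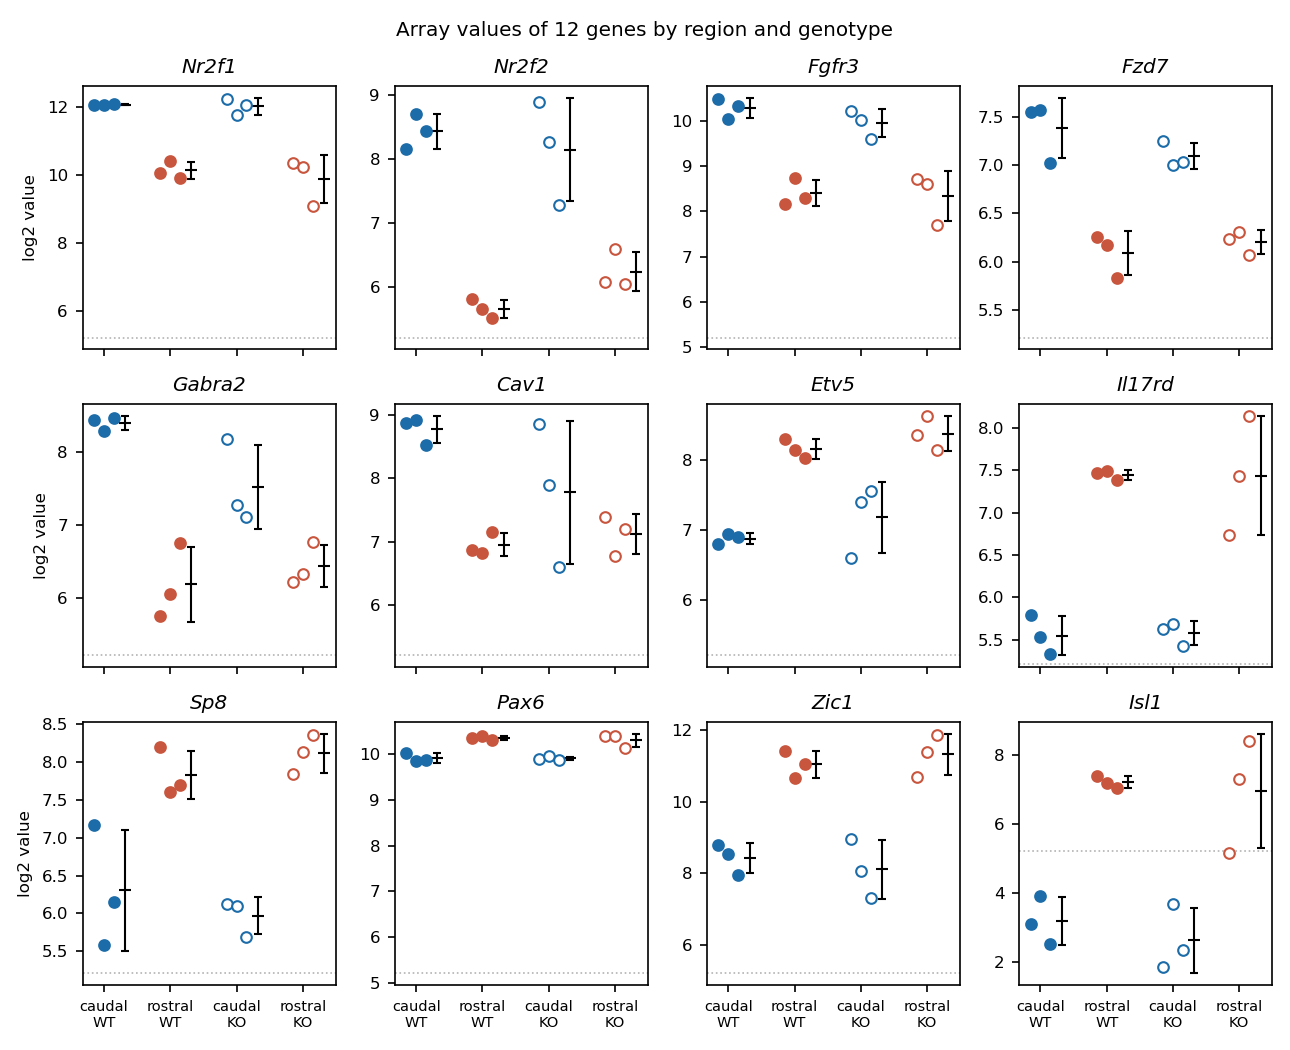
Log2 values of 12 genes on each array, with 3 arrays per group, filled points for WT and open points for KO, blue for caudal and red for rostral. Black bars give the group mean and SD, and the dotted line is the median of the whole table (5.21). Nr2f1, Nr2f2, Fgfr3, Fzd7, Gabra2 and Cav1 lie higher in caudal WT cortex, and Etv5, Il17rd, Sp8, Pax6, Zic1 and Isl1 lie higher in rostral WT cortex.

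Outside the COUP-TFs and Fgfr3, no known caudal or medial factor of the list passed. Of 18 tested members of the caudal and medial list, 11 were higher caudally and 7 rostrally, 3 passed caudally and 0 rostrally (at an unadjusted p under 0.05, 5 and 3), with a median difference of 0.16 against -0.02 over all tested genes. Emx2, whose loss shrinks caudal areas, read 9.93, 8.98 and 8.76 in caudal and 9.15, 9.31 and 8.86 in rostral cortex, with overlapping arrays (0.12 ± 0.27, adjusted p = 0.96). The LIM factor Lhx2 differed by 0.21 ± 0.16 and Emx1 by 0.07 ± 0.21, and neither passed. Without caudal array 4, which carried the highest Emx2, Emx1 and Lhx2 values, Emx2 differed by -0.24 and Emx1 by -0.13. Dmrt3, a doublesex-related factor of medial pallium, was measured at 8.82, 8.35 and 7.96 against 6.87, 7.40 and 6.98 (1.29 ± 0.40, adjusted p = 0.18). The related Dmrta1 stood on the other side (-0.85 ± 0.25, adjusted p = 0.14), as did Tox (-0.74 ± 0.22, adjusted p = 0.16).

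Markers of the hippocampal field leaned to the caudal piece in WT cortex, with 10 of 13 tested members higher there, a median of 0.32, and 1 that passed, Nr2f2, which is in both lists. In KO cortex the median was 0.03. The list means overlapped there, at 8.70, 8.49 and 8.22 on the caudal and 8.17, 8.30 and 8.42 on the rostral KO arrays. Calb1, the calbindin gene, read 7.23, 8.03 and 7.53 in caudal and 6.69, 6.29 and 6.74 in rostral cortex and did not pass (1.02 ± 0.25, adjusted p = 0.078). Zbtb20, a factor of hippocampal fate, was spread over both regions (8.78, 7.58 and 9.22 against 8.22, 7.85 and 8.56, difference 0.32 ± 0.49). The hem list showed no lean at all. Of its 19 tested members 9 were higher caudally, its median was -0.00 and 0 passed, with 1 caudal and 0 rostral members at an unadjusted p under 0.05. Wnt8b, expressed by hem and medial pallium, read 6.79, 7.06 and 4.85 in caudal and 6.99, 7.12 and 6.63 in rostral cortex. Lef1, a transcriptional partner of Wnt signalling, differed by 0.17. Wnt3a, the defining hem ligand, differed by 0.13, and Wnt2b and Lmx1a lay below the filter on low values. On caudal array 14 the hem list averaged 6.57, under the 6.85 to 7.38 of the other WT arrays.

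The rostral list, made of the anterior FGF ligands, their ETS and feedback targets, and rostral area genes, went largely the other way. Of 19 tested members, 14 were higher rostrally, 5 passed rostrally and 2 caudally (at an unadjusted p under 0.05, 10 and 3), and the median difference was -0.44. Among the ligands, Fgf18 was dim in caudal cortex (4.66, 2.95 and 5.13) and read 6.61, 6.16 and 6.40 rostrally, so that it was at least 2.26-fold higher there (-2.14 ± 0.44, adjusted p = 0.037). Fgf15, a ligand of the anterior midline and ventral forebrain, read 5.79, 6.00 and 5.64 against 8.13, 7.47 and 7.44. The regions did not overlap, and the difference of -1.87 ± 0.41 fell just outside the threshold (adjusted p = 0.052). Fgf8 and Fgf17, the anterior organiser ligands themselves, stayed under the filter, with Fgf8 at -0.14, 0.73 and 1.03 in caudal and 0.94, 3.43 and 3.38 in rostral cortex, and no fold is given where both groups are dim. Fgf18 lost its call without caudal array 4, any rostral WT array, caudal KO array 1 or 2 or rostral KO array 7 or 8 (adjusted p = 0.050 to 0.17).

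Of the pathway's targets Etv5 and Il17rd passed, both rostrally. Etv5, an ETS factor induced by FGF signalling, read 6.79, 6.94 and 6.90 in caudal and 8.31, 8.14 and 8.03 in rostral cortex, tight within each region and more than 1 log2 unit apart (-1.28 ± 0.21, 2.43-fold, adjusted p = 0.012). Without rostral array 10 its adjusted p was 0.076 (range 0.0019 to 0.092 over 26 alternatives). Il17rd, known as Sef, is a membrane antagonist that FGF signalling induces. It read 5.79, 5.53 and 5.33 against 7.47, 7.49 and 7.38 (-1.90 ± 0.27, 3.73-fold, adjusted p = 0.0061). The feedback inhibitors Spry1 (-0.92 ± 0.31), Spry2 (-0.62 ± 0.20) and Dusp6 (-0.61 ± 0.16) had rostral-side differences that did not pass (adjusted p = 0.24, 0.23 and 0.11). Spry4, dim in rostral cortex, read 4.88, 5.45 and 4.93 against 5.18, 4.77 and 4.14 (adjusted p = 0.92). Etv4 lay below the filter, at 1.70, 1.93 and 2.40 in caudal and 4.68, 4.42 and 3.89 in rostral cortex. Fgfbp3, a secreted protein that binds FGFs, is outside the list and was picked out after its values were seen. It read 8.23, 8.81 and 8.23 against 10.08, 10.22 and 9.70 (-1.57 ± 0.22, adjusted p = 0.0052).

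Of the transcription factors of the list, Sp8, a zinc finger factor that sustains anterior FGF signalling, read 7.17, 5.59 and 6.15 in caudal and 8.20, 7.61 and 7.70 in rostral cortex (-1.53 ± 0.32, adjusted p = 0.037). Its call was lost without caudal array 6 or 14, any rostral WT array, caudal KO array 2 or rostral KO array 7 or 8 (adjusted p = 0.052 to 0.17). Pax6, the radial glia factor that promotes rostrolateral identity, had a small difference. It read 10.04, 9.85 and 9.88 against 10.37, 10.40 and 10.32 (-0.44 ± 0.09, 1.35-fold, adjusted p = 0.033). Its call did not hold without caudal array 6 or 14, any rostral WT array, caudal KO array 2 or rostral KO array 8 (0.052 to 0.12), and 1 of its 4 probe sets, under 5.21 on 5 of the 6 WT arrays, pointed the other way. Over 26 alternatives the adjusted p of Pax6 ranged from 0.0078 to 0.97 and its difference from -0.50 to -0.070. Six3, a homeobox factor of the anterior neural plate, read 3.71, 5.59 and 4.20 against 6.56, 6.38 and 6.18 (-1.88 ± 0.49, adjusted p = 0.10). Without caudal array 6, the array of high Ttr, Six3 passed (-2.42, adjusted p = 0.035, range 0.035 to 0.30 over 25 alternatives).

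Not every rostral gene of the list was higher rostrally. Auts2, a regulator of transcription and the cytoskeleton known from frontal cortex, was higher caudally, at 11.93, 12.03 and 12.22 against 11.65, 11.53 and 11.78 (0.40 ± 0.08, 1.32-fold, adjusted p = 0.033), and its 4 probe sets gave the same sign. It lost its call without caudal array 6 or 14, rostral array 10 or 12, caudal KO array 2 or rostral KO array 7 or 8 (0.052 to 0.13). The LIM-only gene Lmo4 differed by 0.45 ± 0.12 and the cadherin Cdh8 by -0.13 ± 0.20, and neither passed (adjusted p = 0.088 and 0.93).

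Several markers of the ventral and anterior telencephalon had higher values in the rostral piece. Of 27 tested genes of ganglionic eminence, striatum and interneurons, 17 were higher rostrally and 10 caudally. Of these, 3 passed rostrally and 0 caudally (at an unadjusted p under 0.05, 10 and 3), and the median was -0.43. Isl1, the LIM-homeobox factor of striatal precursors, was dim in all 3 caudal samples (3.09, 3.92 and 2.54) and read 7.39, 7.19 and 7.04 rostrally. It was at least 3.97-fold higher there (-4.02 ± 0.70, adjusted p = 0.018), and lost its call without caudal array 14 or any rostral WT array (0.056 to 0.099) and with values under 5.21 raised to 5.21 (adjusted p = 0.12, range 0.0027 to 0.12 over 26 alternatives). Olig2, a basic helix-loop-helix factor of ventral progenitors and the oligodendrocyte lineage, read 4.05, 4.33 and 4.27 against 6.29, 6.57 and 6.00, at least 2.10-fold higher rostrally (adjusted p = 0.010), with its call lost without rostral array 10 or 12 (0.054 to 0.060). Ppp1r1b, the gene of the striatal phosphatase inhibitor DARPP-32, read 5.40, 5.16 and 5.43 against 7.06, 6.41 and 6.75 (-1.42 ± 0.29, adjusted p = 0.036), and lost its call without any 1 of the 6 WT arrays, caudal KO array 2 or rostral KO array 8 (0.055 to 0.17).

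The interneuron genes of that list did not follow as a block. Dlx1 differed by -1.17 ± 0.34 and Dlx2 by -1.0 ± 0.25 without passing (adjusted p = 0.14 and 0.080), while Lhx6 (0.45), Sst (0.89) and Crabp1 (1.22) stood on the caudal side without passing (adjusted p = 0.40, 0.17 and 0.20). Dlx2 passed without caudal array 6 (-1.24, adjusted p = 0.041, range 0.030 to 0.30 over 26 alternatives). Lhx8, a factor of ventral telencephalon and septum, lay below the filter, at 1.05, 1.01 and 0.64 in caudal and 4.91, 4.39 and 4.93 in rostral cortex. The mean over the 27 list members was 5.78, 6.45 and 6.21 on the caudal arrays and 6.95, 6.68 and 6.75 on the rostral arrays, with no overlap.

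Septal and Zic genes gave the lowest median of the lists with at least 5 tested members (-0.58), with 9 of 12 tested members higher rostrally and 1 that passed. Zic1, a zinc finger factor of septum, meninges and Cajal-Retzius cells, read 8.78, 8.53 and 7.95 in caudal and 11.41, 10.65 and 11.06 in rostral cortex. The gap between the regions was nearly 2 log2 units (-2.62 ± 0.37, 6.14-fold, adjusted p = 0.0058), and Zic1 passed in all 26 alternative fits. The related Zic4 read 4.33, 5.42 and 4.87 against 8.26, 8.22 and 8.15 and stood just outside the threshold (-3.34 ± 0.74, adjusted p = 0.053). Zic5 differed by -0.87 (adjusted p = 0.48) and Zic2 by -0.23 (adjusted p = 0.93). Pou3f4, a POU factor of the ventral forebrain chosen after its values were seen, read 5.52, 6.08 and 5.65 against 7.21, 7.59 and 7.34 (-1.63 ± 0.18, 3.09-fold, adjusted p = 0.0016).

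Of the retina and pigment list 3 members were tested and 1 passed, Dct. It encodes dopachrome tautomerase, an enzyme of melanin synthesis that is also expressed in progenitors of the telencephalon. Dct read 8.81, 6.14 and 4.95 in caudal and 10.53, 10.43 and 9.93 in rostral cortex, so the caudal arrays were widely spread and still all lower (-3.66 ± 0.65, 12.7-fold, adjusted p = 0.019). The call was lost without caudal array 6 or any rostral WT array (0.050 to 0.10). Pmel, a structural protein of pigment granules, read 2.85, 5.61 and 4.04 against 5.29, 5.48 and 5.35 and did not pass (-1.21 ± 0.85, adjusted p = 0.75). Tyr, Tyrp1, Mlana and Mitf, other genes of pigment cells, lay below the filter, Tyr at 3.86 to 4.98 and Tyrp1 at 2.58 to 4.61 on the 6 WT arrays. Otx2, a homeobox factor of forebrain midline, choroid plexus and retina, read 1.61, 7.00 and -0.27 in caudal and 7.62, 7.18 and 6.84 in rostral cortex. The value of 7.00 belongs to caudal array 6. Otx2 did not pass (-4.43 ± 1.41, adjusted p = 0.20), and without that array it did (-6.54, adjusted p = 0.014, range 0.014 to 0.50 over 25 alternatives).

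Several other leading rostral genes belong to no list. Sall4, a zinc finger factor of pluripotent and early embryonic cells, was dim in caudal cortex and at least 1.97-fold higher rostrally (1.55, 4.64 and 2.07 against 6.51, 6.25 and 5.82, adjusted p = 0.029). BC034090 was dim in caudal cortex and at least 3.36-fold higher (4.22, 2.32 and 4.42 against 6.90, 6.97 and 7.01, adjusted p = 0.0082). As3mt, an arsenic methyltransferase, was at least 2.50-fold higher (4.74, 4.40 and 4.37 against 6.84, 6.42 and 6.34, adjusted p = 0.0029). In these 3 genes the rostral arrays lay close together and no caudal array reached them. Thsd4, an extracellular matrix protein, differed by -2.44 ± 0.50 (adjusted p = 0.037). Ppp1r17, a phosphatase inhibitor known from intermediate progenitors, and Clgn, a chaperone of the endoplasmic reticulum, were dim caudally and at least 1.79-fold and 1.40-fold higher rostrally (adjusted p = 0.037 for each). Sall4 lost its call without caudal array 4 or 14 or any rostral WT array (0.076 to 0.13), BC034090 without rostral array 10 (0.054, the highest over 25 alternatives), and Thsd4 without any rostral WT array, caudal KO array 2 or rostral KO array 7 or 8 (0.054 to 0.12). Ppp1r17 lost it without caudal array 4 or 6, any rostral WT array, caudal KO array 2 or rostral KO array 8 (0.055 to 0.17), and Clgn without these or rostral KO array 7 (0.052 to 0.14).

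The gradient of neurogenesis was examined through lists of progenitors and neurons. Of 31 tested genes of radial glia, the primary progenitors of the cortex, 18 were higher caudally, with a median of 0.03. At an unadjusted p under 0.05 there were 4 caudal and 6 rostral members, against 390 and 833 of all 11785 genes. The 3 that passed, Fgfr3, Fgfr2 and Pax6, are also patterning genes and are described above. Among other well-known members, Sox2 differed by -0.10, Fabp7 by 0.04, Hes1 by 0.16 and Vim by 0.24. Ccnd1, the D-type cyclin of progenitors, read 9.23, 9.38 and 9.19 in caudal and 9.85, 9.81 and 9.53 in rostral cortex, a gap without overlap that did not pass (-0.46 ± 0.10, adjusted p = 0.053). Hmga2, a chromatin protein of young progenitors, differed by -0.80 ± 0.22 (adjusted p = 0.12).

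Basal progenitors divide away from the ventricle and give rise to neurons. Of 31 tested genes of this class 19 were higher rostrally, with a median of -0.11, and 1 passed, rostrally. At an unadjusted p under 0.05 there were 3 caudal and 8 rostral members. Rcor2, a corepressor of the REST complex, read 8.76, 8.44 and 8.63 in caudal and 9.31, 9.32 and 9.67 in rostral cortex (-0.83 ± 0.13, 1.77-fold, adjusted p = 0.012). Insm1, a zinc finger factor that promotes the formation of these cells, read 10.31, 10.34 and 10.53 against 10.76, 10.83 and 10.82 (-0.41 ± 0.09, adjusted p = 0.056), and Cdkn1c, an inhibitor of the cell cycle, differed by -0.55 ± 0.14 (adjusted p = 0.080). The arrays of the regions did not overlap in these 3 genes. Within the list they did not overlap in 9 of 31 tested genes, against 1644 of all 11785 (13.9%). Eomes itself overlapped fully, at 10.97, 10.70 and 10.74 in caudal and 10.62, 10.99 and 10.66 in rostral cortex (0.05 ± 0.12), and the proneural factor Neurog2 differed by -0.21 ± 0.16.

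Young neuron genes were balanced, with 18 of 36 tested members on each side, a median of 0.01 and 0 that passed (6 caudal and 2 rostral at an unadjusted p under 0.05). Tubb3, the neuronal tubulin, differed by -0.07 ± 0.08. The neurofilament genes Nefm (0.74 ± 0.18) and Nefl (1.03 ± 0.29) and the synaptic vesicle gene Syt4 (0.74 ± 0.18) stood on the caudal side without overlap and without passing (adjusted p = 0.076, 0.13 and 0.069). Lack of overlap was no more common here than elsewhere, with 5 of the 36 young neuron genes against 1644 of all 11785 (13.9%). Of 21 upper layer genes 16 were higher rostrally (6546 of 11785 over all genes), with a median of -0.22 and 0 that passed (1 caudal and 5 rostral at an unadjusted p under 0.05). Pou3f3, which favours upper layer fate, differed by -0.40 ± 0.09 and the cut-like factor Cux1 by -0.34 ± 0.09 (adjusted p = 0.065 and 0.088).

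Deep layer and subplate genes held 3 that passed among 28 tested, with a median of -0.06. Foxp2, a forkhead factor of layer 6 and striatum, read 7.20, 6.63 and 7.58 in caudal and 8.46, 8.04 and 8.32 in rostral cortex (-1.13 ± 0.21, 2.19-fold, adjusted p = 0.025), and all 5 probe sets gave the same sign. Pcdh20, a protocadherin, read 6.60, 6.16 and 5.92 against 7.56, 7.23 and 7.17 (-1.09 ± 0.23, adjusted p = 0.039). Rprm, an inhibitor of the cell cycle used as a deep layer marker, went the other way, at 11.42, 11.48 and 11.33 against 10.77, 10.93 and 10.86 (0.56 ± 0.10, 1.47-fold, adjusted p = 0.019). Tbr1, the T-box factor of layer 6, differed by -0.49 ± 0.18 (adjusted p = 0.32) and Bcl11b, of layer 5, by -0.26 ± 0.12 (adjusted p = 0.48). Foxp2 lost its call without caudal array 4 or rostral array 10 or 16 (0.051 to 0.12), Rprm without caudal array 6 or rostral array 10 or 16 (0.056 to 0.10), and Pcdh20 without caudal array 6 or 14, any rostral WT array, caudal KO array 2 or rostral KO array 7 or 8 (0.056 to 0.18). Crym, a thyroid hormone binding protein, was 1.68 ± 0.67 higher on the mean of the caudal arrays (8.50, 7.39 and 8.35 against 6.10, 6.12 and 6.97) without passing (adjusted p = 0.37).

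**Figure D3:**
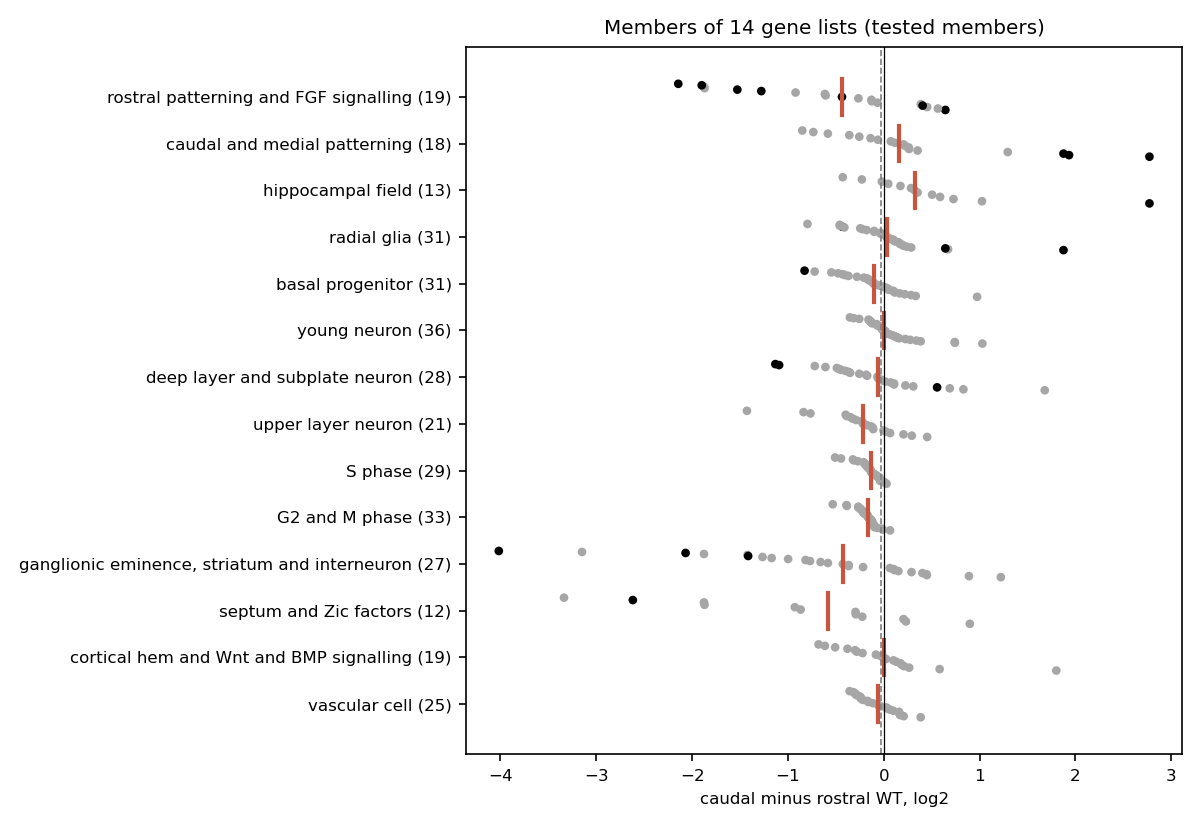
Caudal minus rostral difference (log2) of each tested member of 14 gene lists, with the number of tested members in brackets. Black points passed, grey points did not, red bars are list medians, and the dashed line is the median of all tested genes (-0.02). The lists of the ganglionic eminence (-0.43), septum (-0.58) and rostral patterning (-0.44) have the lowest medians shown, and the hippocampal list (0.32) has the highest.

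Cell cycle genes had small differences, mostly on the rostral side, where 6546 of all 11785 tested genes lay. In S phase, when DNA is copied, 26 of 29 tested genes had higher rostral means, with a median of -0.14, and in G2 and M phase, 32 of 33, with a median of -0.16. In neither list did a gene pass (at an unadjusted p under 0.05, 1 and 3 rostral, 0 and 0 caudal). The smallest p-values belonged to Rrm2, a subunit of ribonucleotide reductase (-0.31 ± 0.09, adjusted p = 0.16), and Spc25, a kinetochore protein (-0.39 ± 0.12, adjusted p = 0.17). The array means of the lists overlapped between regions. S phase averaged 9.46, 9.24 and 9.03 on caudal arrays 4, 6 and 14 and 9.38, 9.58 and 9.23 on rostral arrays 10, 12 and 16, and G2 and M phase averaged 9.49, 9.17 and 8.93 and 9.35, 9.59 and 9.16. The spread within each region was larger than the difference between them, and arrays high in one list were high in the other.

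**Figure D4:**
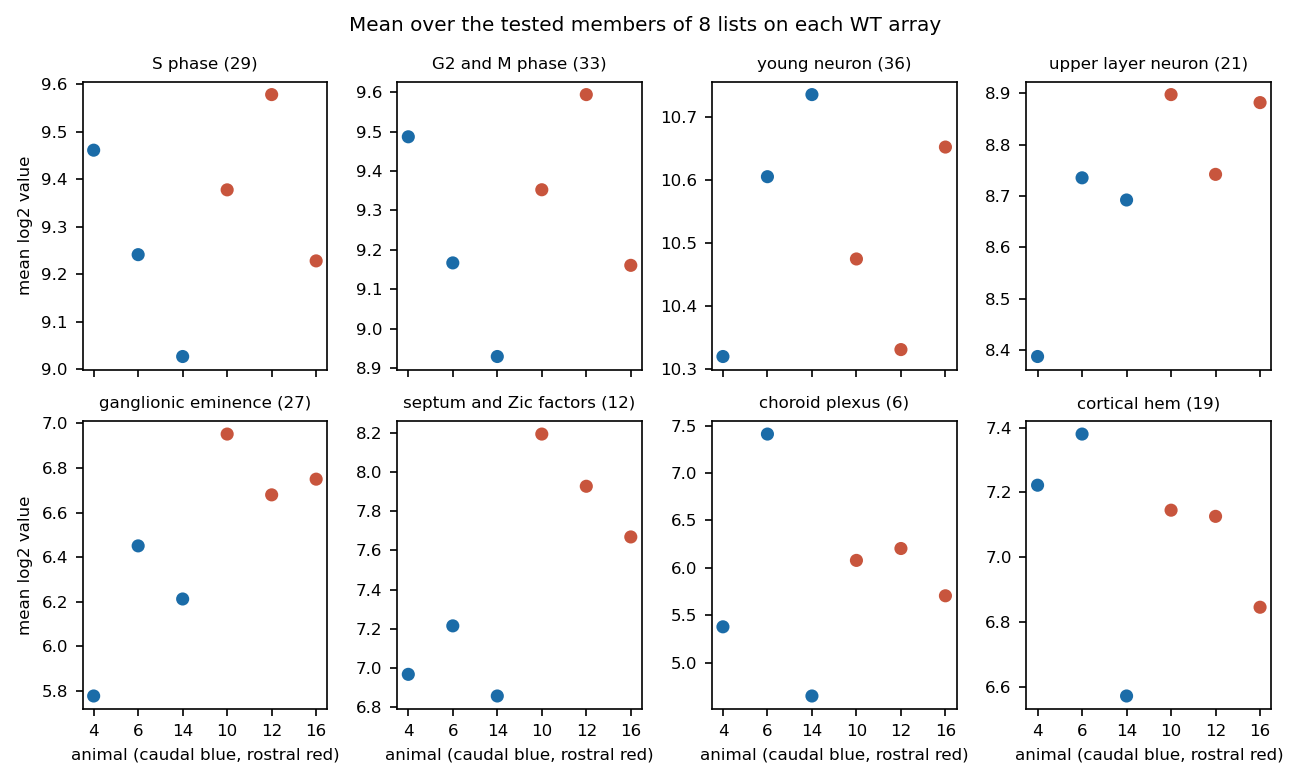
Mean log2 value over the tested members of 8 gene lists on each WT array, by animal number, caudal in blue and rostral in red, with the number of tested members in brackets. S phase and G2 and M phase means overlap between regions, the ganglionic eminence and septum means do not, and the choroid plexus mean of caudal array 6 (7.41) lies above those of the other arrays (4.65 to 6.20).

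Genes of axon guidance and cell adhesion had 4 that passed among 43 tested, 1 caudal and 3 rostral, with a median of -0.13. Robo1, a receptor for Slit proteins, read 8.44, 8.88 and 8.75 in caudal and 10.01, 9.71 and 9.50 in rostral cortex (-1.05 ± 0.17, 2.08-fold, adjusted p = 0.012). Cdh10, a type II cadherin, differed by -0.74 ± 0.12 (adjusted p = 0.013) and Efna2, an ephrin ligand, by -0.56 ± 0.11 (adjusted p = 0.027). Flrt3, a membrane protein that binds Unc5 and Robo receptors, was the caudal member, at 9.48, 9.49 and 9.80 against 8.73, 8.78 and 8.61 (0.88 ± 0.16, 1.85-fold, adjusted p = 0.021). Regions did not overlap in these 4 genes, as in all 111 that passed. Without rostral array 10 the calls of Robo1 (0.076, range 0.0047 to 0.077 over 26 alternatives) and Cdh10 (0.080, range 0.0044 to 0.60) were lost, without caudal array 14 or any rostral WT array that of Flrt3 (0.061 to 0.086), and without any 1 of the 6 WT arrays that of Efna2 (0.051 to 0.12). The guidance cue netrin and its receptor had rostral-side differences that did not pass: Ntn1 differed by -1.79 ± 0.40 and Dcc by -0.85 ± 0.19, as did the ephrin Efna5 by -1.37 ± 0.31, each with an adjusted p of 0.056.

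Markers of other tissues and cells were read next. Choroid plexus genes were carried by caudal array 6: beside Ttr, it read 7.67 for Kcne2, 7.71 for Folr1, 7.33 for Clic6 and 7.25 for Ecrg4, and its list mean was 7.41 against 4.65 to 6.20 on the other WT arrays. Of 6 tested members 4 were higher caudally and 0 passed, with 2 caudal and 1 rostral at an unadjusted p under 0.05. Thalamic and midbrain genes had 1 of 11 tested that passed, Calb2, the calretinin gene, which is also a Cajal-Retzius marker. It read 7.14, 7.06 and 7.04 in caudal and 8.24, 7.65 and 8.47 in rostral cortex (-1.04 ± 0.21, adjusted p = 0.032), and lost its call without any caudal WT array, rostral array 10 or 16, caudal KO array 2 or rostral KO array 8 (0.053 to 0.15). The thalamic factor Tcf7l2 differed by -0.51 (adjusted p = 0.69). In the Cajal-Retzius list, whose cells line the cortical surface, Zic1 and Calb2 passed among 14 tested, and Reln, the defining secreted protein, differed by 0.21 ± 0.33, at 10.85, 10.19 and 11.61 against 10.33, 10.50 and 11.21.

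No vascular gene passed among 25 tested, nor any gene of microglia (12 tested), red blood cells (7) or immediate early and stress response (12). With 0.942% of all genes passing, 0 in lists of this size is near the background. At an unadjusted p under 0.05 these lists held 0, 1, 1 and 0 genes, both rostral. Higher rostral means were found in 15 of 25, 11 of 12, 5 of 7 and 6 of 12 members, against 6546 of all 11785 genes. The microglia list had a median of -0.25. Among 14 meningeal genes Zic1 alone passed, and the mesenchymal factor Prrx1 differed by -1.01 ± 0.23 (adjusted p = 0.060). Of 7 oligodendrocyte lineage genes 1 passed, Olig2, while Olig1 differed by -0.66 (adjusted p = 0.58). Of 9 tested olfactory genes 0 passed and 2 were at an unadjusted p under 0.05, both rostral. Their mean was 5.34 to 5.56 on the caudal and 5.90 to 5.99 on the rostral WT arrays. On the KO arrays it was 5.57 to 5.68 and 5.96 to 6.19. Cdhr1, a cadherin of mitral and retinal cells, was dim in both WT regions (0.60, 2.58 and 2.86 against 4.85, 4.24 and 4.97, adjusted p = 0.051). In KO cortex it read 3.89, 4.14 and 4.15 against 6.28, 6.97 and 6.45. In the antihem list, from the lateral edge of the pallium, Foxp2 passed among 11 tested. The part of neighbouring tissue in the results for Isl1, Olig2, Zic1, Six3, Otx2 and Dct was not tested, and the septum list mean was 6.86 to 7.22 in caudal and 7.67 to 8.19 in rostral cortex. That list holds Zic1 and Six3, and the ganglionic eminence list holds Isl1, Olig2 and Six3, so their means share these genes.

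The KO arrays gave a second look at the same regions in other animals. They also entered the spread by which genes passed in WT, so genes that passed were partly selected for little spread on them. For these genes this favours a call or a lack of overlap in KO. With only the 6 WT arrays, 49 of the 111 still passed. In KO cortex 112 genes passed (0.95%), 26 caudal and 86 rostral. Of the 111 genes that passed in WT, 108 had the same sign in KO, 29 of 30 caudal and 79 of 81 rostral, against 7478 of all 11785 tested genes. In 91 of the 111 the KO arrays also did not overlap, and 50 passed in KO too. How many of all tested genes did not overlap in KO was not counted (13.9% did not in WT). The exceptions in sign were Clgn (0.02), Ccdc14 (0.13) and Pigq (-0.02). Nr2f1, Nr2f2, Fgfr3, Gm38604, Fzd7 and A830082K12Rik passed in both genotypes on the caudal side, as did Isl1, Zic1, Olig2, Sp8, Etv5, Il17rd, Dct, Pax6, Foxp2 and Calb2 on the rostral side.

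Whether a regional difference was particular to WT was tested directly, as the difference between the WT and KO contrasts. None of the 11785 genes passed (0%), with 358 at an unadjusted p under 0.05 and a smallest adjusted p of 0.34. Differences of size are therefore given side by side. Igfbp5, an insulin-like growth factor binding protein, differed by 0.89 in WT and 0.10 in KO. Calb2 went further in KO (-2.04) than in WT (-1.04). Gabra2 differed by 2.21 in WT and 1.09 in KO, and Cav1 by 1.82 and 0.66.

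**Figure D5:**
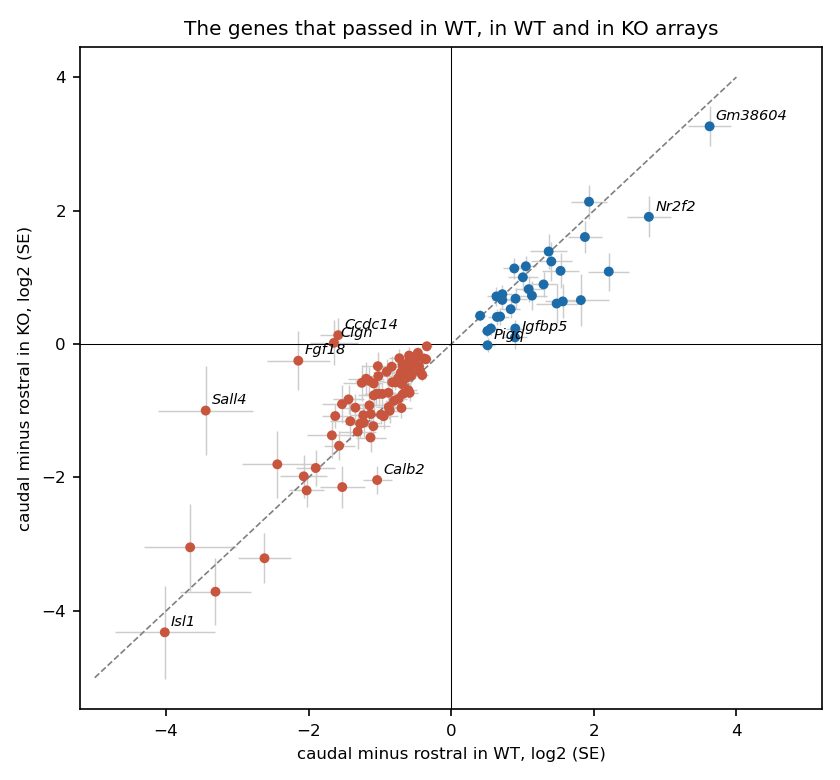
Caudal minus rostral difference (log2, with SE) in WT (horizontal axis) and KO cortex (vertical axis) for the 111 genes that passed in WT, blue for higher caudal and red for higher rostral values in WT. Differences of genes dim in a group, such as Fgf18 and Sall4 in caudal WT cortex, rest on values under 5.21. The dashed line marks equal differences, and 108 of the genes lie on the same side of 0 in both genotypes.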

How the data were processed

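Log2 expression values of 45101 probe sets on 12 one-colour arrays were used as deposited by the authors, with 3 arrays per group. The software, background correction and normalization behind them are not given in the sources used here. Per the labels' protocols, RNA was purified with an RNeasy kit and DNase and amplified with the MessageAmp II kit. Of the probe sets, 34958 name 1 gene, 932 several and 9211 none. A probe set was tested when above the table's median (5.21) on at least 3 arrays, and a gene was represented by its probe set of highest mean. limma 3.58.1 (R 4.3.3) fitted 1 mean per group over all 12 arrays with an intensity trend, and two-sided p-values were adjusted by Benjamini-Hochberg over 11785 genes. Errors after ± are standard errors unless marked SD. The labels number the animals separately but give no litter or preparation, so p-values measure the spread between these samples. The number of arrays limits the precision.

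The gene lists (27, with 443 of 589 members tested) and the members described were chosen with earlier results of these data known. Named genes are the 12 largest non-overlapping differences that passed each way, up to 6 members that passed per list (otherwise the 2 of smallest p) and a fixed set of cortical markers; any other gene was chosen after its values were seen. Alternatives covered normalization, filters, probe sets, moderation, array weights, sets of animals and leaving out each array.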

Additional observations from a re-analysis of the deposited data

How the results depend on the processing

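Each named gene was read in up to 26 alternative fits of the same arrays. Counted as pairs of 1 gene and 1 fit, the 39 named genes that passed did so again in 745 of 1000 pairs. The 49 named genes that did not pass did pass in 41 of 1259 pairs. Counts moved by over 1.5 times in these settings. Without the filter, 50 rostral genes passed, and without the intensity trend 13 caudal genes. With only the 6 WT arrays 36 rostral genes passed. Animals 13 to 16 as an additive block gave 65 caudal and 192 rostral genes and 1 gene that differed between WT and KO, and leaving these animals out gave 34 rostral genes. Leaving out animals 6 and 12 gave 4 caudal and 18 rostral genes. The labels give no pairing, because no 2 groups share an animal number in them. Under the assumption, not in the labels, that number order joins them, arrays joined by number order as a random block (correlation 0.258) gave 84 and 236. Leaving out 1 array gave 10 to 40 caudal genes, 17 to 94 rostral genes and 0 for the difference between WT and KO. Quantile normalization put 73.2% of calls on the rostral side and median centring 75.2%. The cause of these shifts was not tested, except that fewer samples or a larger gene number enter some fits by construction.

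Genes that passed do not overlap between regions, so leaving out arrays cannot reverse them. With the mean of the probe sets, Actb differed by 0.029, Gapdh by -0.054 and Tfap2c by -0.036, and without animals 13 to 16 Tfap2c differed by -0.0145. Leaving out 1 array, these genes that did not pass changed sign: Cdh8 (-0.22 to 0.0053), Eif2s3y (-2.83 to 2.02), Kdm5d (-2.32 to 1.43), Emx1 (-0.13 to 0.29), Emx2 (-0.24 to 0.35), Eomes (-0.031 to 0.17), Gapdh (-0.039 to 0.089), Lef1 (-0.053 to 0.49), Reln (-0.155 to 0.55), Tenm3 (-0.023 to 0.52), Tfap2c (-0.14 to 0.15), Wnt8b (-1.09 to 0.011) and Zbtb20 (-0.025 to 0.795). Signals under 5.21 limit Isl1, Fgf18, Olig2 and the other genes dim in 1 region.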

Other observations

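Of the 111 genes that passed, 87 belong to no gene list, 23 caudal and 64 rostral. The genes of this section were chosen after their values were seen. On the caudal side Slf1, a factor of DNA repair, read 9.91, 10.13 and 10.14 in caudal and 9.16, 8.93 and 8.95 in rostral WT cortex (1.05 ± 0.15, limma adjusted p = 0.0058; 1.17 in KO). Adamts20, a secreted metalloprotease, read 8.02, 7.90 and 7.78 against 7.06, 7.14 and 6.80 (0.90 ± 0.13, adjusted p = 0.0071; 0.23 in KO). The regions did not overlap in either gene, as in all 111 that passed, and neither lost its call when 1 array was left out. Pde2a, a phosphodiesterase, differed by 1.09 ± 0.19 (adjusted p = 0.020), and 4 of 12 single-array omissions ended its call (0.059 to 0.11).

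On the rostral side, Hopx, a homeodomain protein known from outer radial glia, read 8.83, 8.37 and 8.37 against 9.40, 9.49 and 9.64 (-0.99 ± 0.13, adjusted p = 0.0051; -1.06 in KO). Mpped2, a metallophosphoesterase, read 10.23, 9.47 and 9.58 against 10.88, 10.93 and 10.86 (-1.13 ± 0.16, adjusted p = 0.0052; -1.05 in KO). Bmpr1b, a receptor for bone morphogenetic proteins, read 6.07, 5.70 and 5.73 against 7.17, 7.34 and 7.30 (-1.44 ± 0.22, adjusted p = 0.0080). Nrn1, the neuritin gene, had a small and even difference, at 10.12, 10.08 and 10.08 against 10.54, 10.53 and 10.57 (-0.45 ± 0.07, adjusted p = 0.0074). None of these 4 lost its call when 1 array was left out. Foxp2 (-1.13) and Cav2 (1.48) lie near each other, with 2 tested genes between them, and differed in opposite directions. Probe sets that name no gene were read in a separate fit of 24676 probe sets, with p-values adjusted over these. Of the 2827 that name no gene, 0 passed caudally and 6 rostrally, all 6 with the same sign in KO. Their largest differences were -3.76 and -3.15. The share of all probe sets that passed in that fit was not counted, and among tested genes it was 0.255% caudally and 0.687% rostrally.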
